A study of Saccharomyces cerevisiae with 6 samples.

Results

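The 9 cyclins that bind the cell cycle kinase Cdc28 and the inhibitor *SIC1* were followed in BSGX001 (thi2Δ) and in BSGX001, xylose-fermenting strains of *Saccharomyces cerevisiae*. The members were chosen by gene symbol as *CLN1*, *CLN2*, *CLN3*, *CLB1*, *CLB2*, *CLB3*, *CLB4*, *CLB5*, *CLB6* and *SIC1*. All 10 were found among the 5925 gene IDs of the files, and all 10 passed the filter on low counts. Both strains derive from CEN.PK 113-5D, a haploid laboratory strain, and share the genotype entries Ru-XI, XK, gre3::PPP and cox4delta and an adaptive evolution in xylose. The thi2delta entry is the one by which the labels set BSGX001 (thi2Δ) apart. Cells were taken at 20 h, in the GX stage, when xylose is consumed after glucose has run out, from fermentations at 30 °C in YNB medium that held both sugars at 20 g/L. Poly(A) RNA was sequenced in 3 libraries per strain. The labels do not say whether the libraries of a strain came from separate cultures, so the p-values measure the spread between these libraries.

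Library totals were 7613438 to 12255688 counts for BSGX001 (thi2Δ) and 7584920 to 10073703 counts for BSGX001, and no library repeated another. *THI2*, the gene named by the deletion, was counted 128, 90 and 141 times in the thi2Δ-labelled libraries, against 215, 203 and 187 times in BSGX001. Its level was lower in the libraries so labelled (log2 fold change -1.10, SE 0.14, edgeR adjusted p = 6.32e-08), but reads on the gene were not absent, which goes against a full deletion. Directions are therefore given for the libraries labelled thi2Δ. Genes known to be specific to a cells summed to 2167 to 2624 FPKM in the thi2Δ-labelled libraries and 1781 to 2022 FPKM in BSGX001, those of alpha cells to 166 to 182 FPKM in the thi2Δ-labelled libraries and 168 to 177 FPKM in BSGX001. Meiosis genes summed to 123 to 126 FPKM in the thi2Δ-labelled libraries and 87.5 to 91.8 FPKM in BSGX001. The sums are in FPKM, which is relative to library totals, and a near-equal sum can hold genes that differ in direction. None of these 3 lists had a gene at 0 in all libraries, and their part in the results was not tested.

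Cdc28 is active when it is bound to a cyclin, and different cyclins carry the cell through successive stages. Cln3 acts first in G1 by relieving the repression of the transcription factors SBF and MBF by Whi5. SBF and MBF then switch on *CLN1*, *CLN2*, *CLB5* and *CLB6*. Clb5 and Clb6 start DNA replication, Clb3 and Clb4 act from S phase into early mitosis, and Clb1 and Clb2 drive mitosis. Sic1 holds the Clb kinases inactive in G1 until it is phosphorylated and destroyed through the SCF ubiquitin ligase, and it is made again at the end of mitosis.

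The upstream stretches of 4 members are shown because they hold the short motifs known for SBF and MBF. *SIC1*, whose MCB and SCB matches lie far apart, 129 and 7 bases before the start codon, is not shown. The sequence is that of R64 (RefSeq), which is S288C and not CEN.PK, and is written 5′ to 3′ on the strand of the gene. Capitals mark MCB (ACGCG) and SCB (CACGAAA or CGCGAAA) matches on either strand. The stretches lie at chrXIII:662079-662103 (+) for *CLN1*, chrXVI:67132-67205 (-) for *CLN2*, chrXVI:775507-775600 (-) for *CLB5* and chrVII:706852-706948 (-) for *CLB6*.
CLN1: aatctcgcacCGCGTtagttagttt
CLN2: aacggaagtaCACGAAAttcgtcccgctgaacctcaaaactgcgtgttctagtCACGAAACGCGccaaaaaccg
CLB5: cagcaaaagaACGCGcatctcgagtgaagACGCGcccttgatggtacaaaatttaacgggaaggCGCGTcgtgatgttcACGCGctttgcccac
CLB6: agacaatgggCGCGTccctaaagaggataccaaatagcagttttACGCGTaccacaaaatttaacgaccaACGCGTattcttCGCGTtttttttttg

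The search covered the 600 bases before the start codon of 6005 genes, on both strands, with overlapping matches of a motif counted once. *CLB5* had 5 MCB matches, of which the one 47 bases before the start codon is outside the stretch shown, and *CLB6* had 4. *CLN1*, *CLN2* and *SIC1* had 1 each, and the other members had none. MCB letters were present before 27.5% of all genes, and 4 or more matches before 0.150% of them. SCB letters were found 2 times before *CLN2*, where the second match shares a base with the MCB match, and once before *SIC1*, against 14.2% of all genes. Forkhead letters (TAAACA) were found before 6 members, against 44.9% of all genes. The MCB and forkhead letters were shortened after a first search with longer ones had been seen: ACGCGT was found before *CLB6* alone among the members (6.34% of all genes) and GTAAACA before *CLB4* and *CLB6* (12.0%). A match of so few letters is a description of the sequence, and nothing on binding follows from it.

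*SIC1* was the most abundant member in both strains. Its mean was 152 ± 9.99 FPKM in thi2Δ-labelled libraries and 154 ± 8.0 FPKM in BSGX001 (SD, n = 3 each), above 78.7% of all genes. *CLB3* was next, with 63.0 ± 1.77 FPKM in thi2Δ-labelled libraries and 46.5 ± 0.177 FPKM in BSGX001. In the thi2Δ-labelled libraries *CLN3* (53.1 ± 3.47 FPKM), *CLB4* (28.5 ± 1.85 FPKM) and *CLB5* (19.0 ± 0.899 FPKM) followed, and each of these levels was separated from the next without overlap of libraries. *CLN1* (11.7 FPKM), *CLN2* (11.6 FPKM), *CLB1* (9.18 FPKM), *CLB2* (6.82 FPKM) and *CLB6* (5.07 FPKM) came last, and each of them overlapped its neighbour in this order. In BSGX001 *CLB4* (29.0 ± 1.25 FPKM) stood above *CLN3* (18.7 ± 2.14 FPKM), which stood above *CLB5* (11.8 ± 1.25 FPKM), whose libraries overlapped those of *CLN2* (10.3 ± 1.53 FPKM). *CLB2* (7.46 FPKM), *CLN1* (7.13 FPKM), *CLB1* (6.83 FPKM) and *CLB6* (5.98 FPKM) again overlapped from neighbour to neighbour. By their mean over both strains, *CLN2* stood above 10.6% and *CLB6* above 5.70% of all genes.

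**Figure D1:**
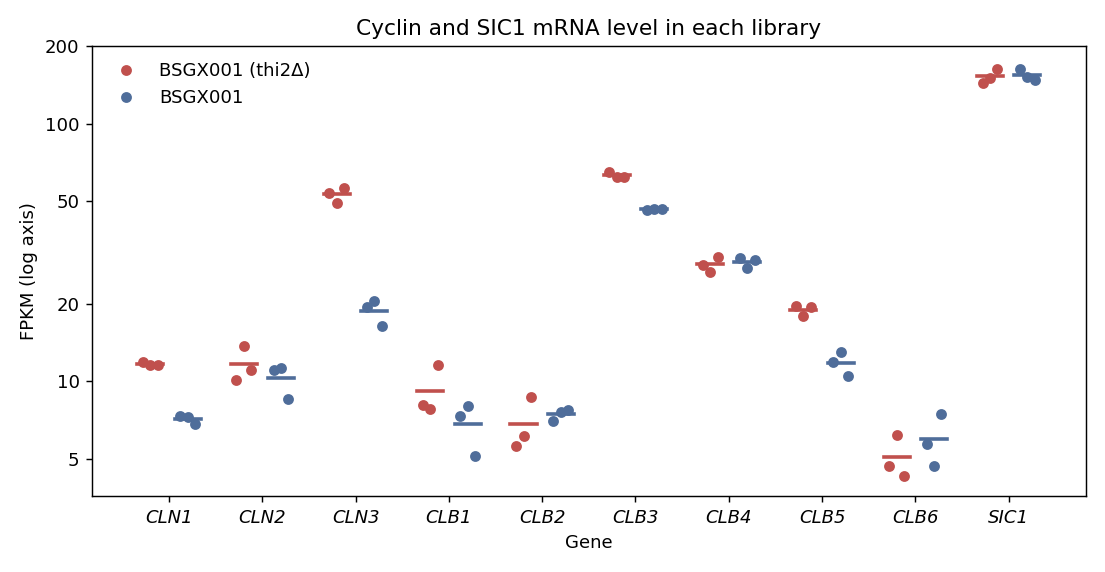
FPKM of each member on a log axis, with 1 point per library, a line at the mean of 3 libraries, and BSGX001 (thi2Δ) to the left of BSGX001 for each gene. *CLN3* shows the widest gap, 53.1 FPKM in BSGX001 (thi2Δ) and 18.7 FPKM in BSGX001, while the points of *SIC1* and *CLB4* overlap on this scale.

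Between the strains, 4 members were higher in the thi2Δ-labelled libraries (*CLN1*, *CLN3*, *CLB3* and *CLB5*), 2 were lower (*CLB4* and *SIC1*) and 4 were not called (*CLN2*, *CLB1*, *CLB2* and *CLB6*), by edgeR's quasi-likelihood test at a Benjamini-Hochberg adjusted p under 0.05 over 5774 genes. Among all genes tested, 26.1% were called higher and 25.2% lower, and beside these shares the counts of 4 and 2 among 10 are no result about the members as a group. The same 6 members had libraries that did not overlap between strains in TMM-scaled CPM (counts relative to the scaled library size), as did 29.1% of all genes in the higher and 28.7% in the lower direction. The median log2 fold change was 0.07 over the members and 0.01 over all genes. Fold changes are on the TMM scale, and scaling by library totals, as FPKM does, moved the median of all genes to 0.22. The RNA came from whole cultures, so that a smaller share of cells in a stage of the cycle and less RNA per cell cannot be told apart.

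**Figure D2:**
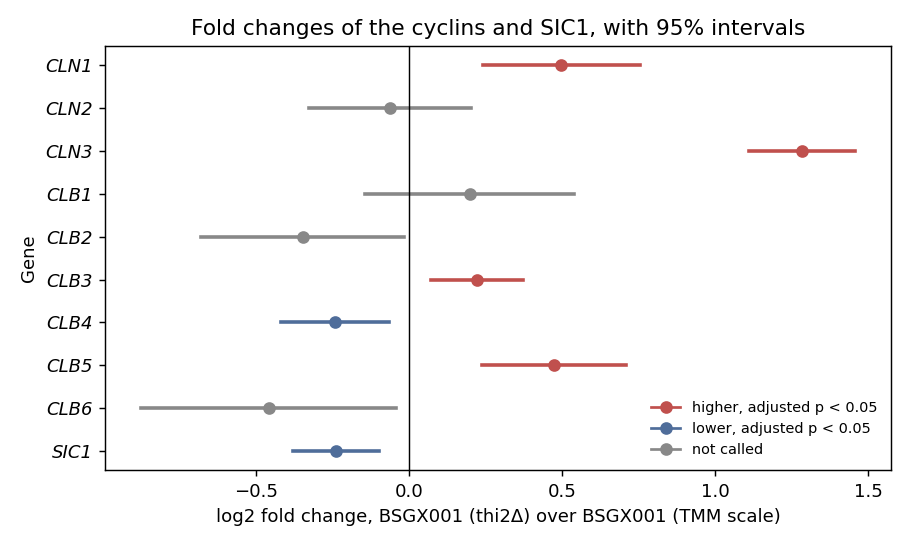
Log2 fold change of each member, BSGX001 (thi2Δ) over BSGX001, on the TMM scale, with points at the estimate and lines over the 95% interval. *CLN3* lies at 1.28, *CLN1* and *CLB5* near 0.50 and 0.47, and *SIC1* and *CLB4* at -0.24. *SIC1* and *CLB4* lost the call when library totals were used.

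*CLN3*, the G1 cyclin that acts upstream of SBF and MBF, had 88.3, 79.1 and 90.2 CPM in the thi2Δ-labelled libraries, against 36.1, 38.3 and 31.2 CPM in BSGX001. Every thi2Δ-labelled library was above every BSGX001 library. The rise was 2.43-fold (log2 fold change 1.28, SE 0.088, edgeR adjusted p = 2.39e-13), and 2.03% of all genes were called at least 2-fold higher. *CLN3* (YAL040C, chromosome I, 65778 to 67520, minus strand) lies on a chromosome where 83 of the 85 tested genes were called higher. There *SSA1* was not called (log2 fold change 0.19) and *YAR009C* was called lower (-0.98, edgeR adjusted p = 0.0487). The other tested genes of chromosome I had a median log2 fold change of 0.99, with quartiles of 0.82 and 1.17, and *CLN3* ranked 16 among the 85. Its neighbours *CDC24*, which encodes an exchange factor for Cdc42, and *CYC3*, which encodes cytochrome c heme lyase, had log2 fold changes of 0.50 and 1.08. When the counts were scaled on chromosome I genes alone, *CLN3* was 1.23-fold higher (log2 fold change 0.30, SE 0.090, edgeR adjusted p = 0.00185). That p-value was adjusted over all tested genes, most of which this scaling moved downward. It does not use the spread among chromosome I genes, so it does not set *CLN3* apart from them. Strain and the level of the whole chromosome cannot be told apart in these libraries, and DNA copy number was not measured. Without *CLN3*, 3 of 9 members were higher and 2 lower, beside 26.1% and 25.2% of all genes tested, which is no result about the members.

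**Figure D3:**
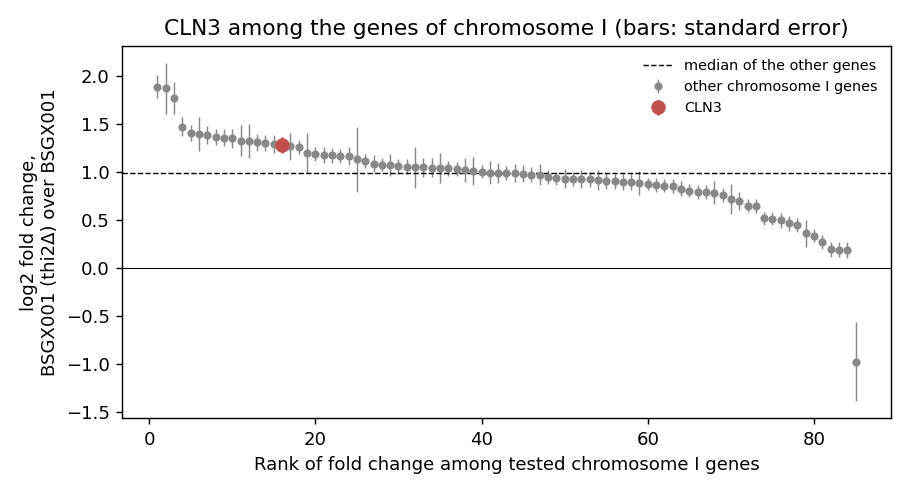
Log2 fold change, BSGX001 (thi2Δ) over BSGX001, of the 85 tested chromosome I genes in order of rank, with bars of 1 standard error. *CLN3* lies at rank 16, above the dashed median of 0.99 of the other genes.

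*CLN1*, a G1 cyclin that promotes budding and entry into the cycle, had 18.3, 17.5 and 17.6 CPM in the thi2Δ-labelled libraries, against 12.8, 12.8 and 12.3 CPM in BSGX001. The libraries did not overlap, and the rise was 1.41-fold (log2 fold change 0.50, SE 0.13, edgeR adjusted p = 0.00217). *CLN2*, its closest relative, had 15.6, 20.7 and 16.8 CPM in the thi2Δ-labelled libraries, against 19.2, 19.9 and 15.3 CPM in BSGX001. These libraries overlapped, the log2 fold change was -0.06 (95% interval -0.33 to 0.20, edgeR adjusted p = 0.723), and its sign turned with library totals. The 2 genes lie on chromosomes XIII (YMR199W) and XVI (YPL256C). The genes most like *CLN2* over the 6 libraries, by the root mean square difference of centred log2 CPM among 5337 genes, were *PAU5* (0.045), *NUS1* (0.063) and *IRC25* (0.068), where the median gene had 0.230. By their choice the nearest genes lie below the median, here and for *CLB2* and *SIC1*, so the distances are a description only.

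*CLB5*, the main S phase cyclin, had 24.1, 21.7 and 23.4 CPM in the thi2Δ-labelled libraries, against 16.6, 18.3 and 15.0 CPM in BSGX001. No library crossed over, and the rise was 1.39-fold (log2 fold change 0.47, SE 0.12, edgeR adjusted p = 0.00152). *CLB6*, the other S phase cyclin, had 5.06, 6.53 and 4.54 CPM in the thi2Δ-labelled libraries, against 6.96, 5.80 and 9.39 CPM in BSGX001. With 46 to 66 counts per library its groups overlapped and the call was missed (log2 fold change -0.46, 95% interval -0.87 to -0.04, edgeR adjusted p = 0.0709). It was called lower without BSGX001 replicate 2 (-0.60, adjusted p = 0.0371) or without thi2Δ-labelled replicate 2 (-0.60, adjusted p = 0.0225). Those were the 2 calls among 16 alternatives, and with library totals the log2 fold change was -0.24 (adjusted p = 0.327). *CLB5* and *CLB6* carry the MCB-rich stretches printed above.

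*CLB3* had 78.4, 73.4 and 73.2 CPM in the thi2Δ-labelled libraries, against 63.3, 64.2 and 65.7 CPM in BSGX001. The libraries did not overlap, and the rise was 1.17-fold (log2 fold change 0.22, SE 0.077, edgeR adjusted p = 0.0157). Without thi2Δ-labelled replicate 1 it was 0.19 and the call was missed (adjusted p = 0.0630). *CLB4*, its closest relative, had 36.8, 34.0 and 38.8 CPM in the thi2Δ-labelled libraries, against 44.1, 41.1 and 44.6 CPM in BSGX001. It fell by 0.24 on the log2 scale (SE 0.090, edgeR adjusted p = 0.0257), but with library totals the log2 fold change was -0.03 (adjusted p = 0.818), and its FPKM overlapped between strains. The call was also missed in 4 of the 6 fits that left out a library, with adjusted p between 0.0506 and 0.0978. *CLB4* (YLR210W, chromosome XII) lies 36629 bp before a segment of that chromosome, *ECM22* to *GAS2*, which was taken out of the scaling in an alternative without changing its call.

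*CLB1*, a mitotic cyclin, had 10.8, 10.2 and 15.2 CPM in the thi2Δ-labelled libraries, against 11.1, 12.2 and 7.95 CPM in BSGX001. The libraries overlapped, and the log2 fold change was 0.20 (95% interval -0.14 to 0.54, edgeR adjusted p = 0.349). With library totals it was called higher (0.41, adjusted p = 0.0473), the 1 call among 16 alternatives. *CLB2*, the main mitotic cyclin, had 7.82, 8.35 and 11.8 CPM in the thi2Δ-labelled libraries, against 11.0, 12.1 and 12.6 CPM in BSGX001. Replicate 3 of the thi2Δ-labelled libraries lay among the BSGX001 values, and the log2 fold change was -0.35 (95% interval -0.68 to -0.02, edgeR adjusted p = 0.0863). Without that library it was called lower (-0.55, adjusted p = 0.0139), the 1 call among 16 alternatives. With library totals the log2 fold change of *CLB2* was -0.13 (adjusted p = 0.518). Replicate 3 of the thi2Δ-labelled libraries also had the highest *CLB1* level of all 6. The genes most like *CLB2* were *EDC1* (root mean square difference 0.088), *YDR524C-B* (0.101) and *HAC1* (0.107), where the median gene had 0.287. *CLB1* and *CLB6* are convergent neighbours with 307 bp between them on chromosome VII, and *CLB2* and *CLB5* with 746 bp between them on chromosome XVI. Whether the counting used strand is not given in the sources used here, so reads beyond the 3′ ends of such a pair cannot be told apart.

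*SIC1* had 115, 119 and 129 CPM in the thi2Δ-labelled libraries, against 148, 140 and 139 CPM in BSGX001. All thi2Δ-labelled values were lower, and it fell by 0.24 on the log2 scale (SE 0.072, edgeR adjusted p = 0.00638), but with library totals the log2 fold change was -0.02 (adjusted p = 0.803). The call held in all 6 fits that left out a library, where the log2 fold change lay between -0.29 and -0.20. *GTS1* (0.026), *CRN1* (0.027) and *IES2* (0.027) were most like it by root mean square difference, where the median gene had 0.183.

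Ratios within a library do not depend on the scaling between libraries. The 3 thi2Δ-labelled values and the 3 BSGX001 values did not overlap in any of 6 ratios, and each had an exact two-sided permutation p of 0.1, which is the smallest that 3 libraries against 3 allow (0.1 after Benjamini-Hochberg adjustment), so no ratio could pass 0.05. Of single genes, 29.1% did not overlap in the higher and 28.7% in the lower direction, and the ratios join members whose own fold changes differ, so that the count of 6 restates the values above and is no further result. *CLN1* per *CLN2* was 1.18, 0.846 and 1.05 in the thi2Δ-labelled libraries, against 0.664, 0.641 and 0.800 in BSGX001 (difference of log2 ratios 0.54). *CLB5* per *CLB6* was 4.17, 2.90 and 4.50 in the thi2Δ-labelled libraries, against 2.08, 2.75 and 1.4 in BSGX001 (0.92). *CLB3* per *CLB4* was 2.30, 2.33 and 2.03 in the thi2Δ-labelled libraries, against 1.55, 1.68 and 1.59 in BSGX001 (0.47). The first-named gene of each of these close pairs thus stood higher relative to the second in the thi2Δ-labelled libraries. *CLB1* per *CLB2* was 1.44, 1.27 and 1.34 in the thi2Δ-labelled libraries, against 1.05, 1.05 and 0.659 in BSGX001 (0.58).

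The inhibitor was lower relative to the S phase cyclins, whose summed FPKM was 24.1 in the thi2Δ-labelled libraries and 17.8 in BSGX001. In that sum *CLB5* had 19.0 and 11.8 FPKM, and *CLB6*, which was not called, had 5.07 and 5.98 FPKM. *SIC1* itself had 152 and 154 FPKM, which is scaled by library totals. On the TMM scale the log2 fold change of *SIC1* was -0.24. *SIC1* per summed *CLB5* and *CLB6* was 5.88, 6.24 and 6.88 in the thi2Δ-labelled libraries, against 9.26, 8.58 and 8.24 in BSGX001 (difference of log2 ratios -0.46). *CLN3* per *WHI5*, the activator over the repressor of SBF, was 0.783, 0.969 and 0.845 in the thi2Δ-labelled libraries, against 0.306, 0.305 and 0.246 in BSGX001 (1.60), with *CLN3* on chromosome I. Summed over the G1 cyclins, *CLN3* made up 69.4 ± 2.91% of FPKM in the thi2Δ-labelled libraries and 51.8 ± 0.500% in BSGX001 (SD, n = 3 each). *CLB3* and *CLB4* together made up 69.6 ± 1.69% of B-type cyclin FPKM in the thi2Δ-labelled libraries and 70.2 ± 1.11% in BSGX001, with overlapping libraries.

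**Figure D4:**
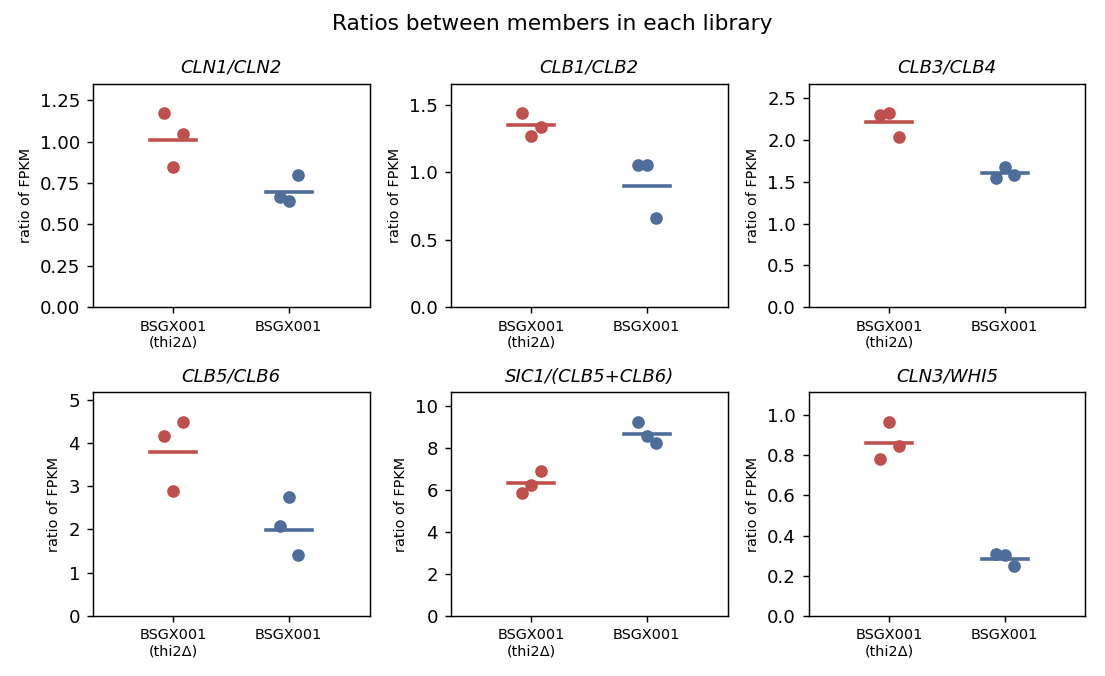
Ratio of FPKM between members in each library, 1 panel per ratio, with axes from 0, points for libraries and lines at the geometric mean. BSGX001 (thi2Δ) is left of BSGX001, and the points do not overlap in any panel: *CLB5*/*CLB6* was at least 2.90 in BSGX001 (thi2Δ) and at most 2.75 in BSGX001.

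The other genes of this machinery were taken from 10 lists of 101 genes. Of these, 31 were higher and 26 lower in the thi2Δ-labelled libraries, with a median log2 fold change of 0.06, against 0.01 for all genes. Over all genes tested 26.1% were higher and 25.2% lower, so that these counts, and those of the single lists below, are a description and no result about the genes as a group. With library totals the split was 52 higher and 6 lower, so that the balance of directions depends on the scaling. Among the falls named below, those of *MIH1*, *MSA1*, *WHI3*, *BUD3*, *DOC1* and *BFA1* were also called with library totals and the others were not.

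**Figure D5:**
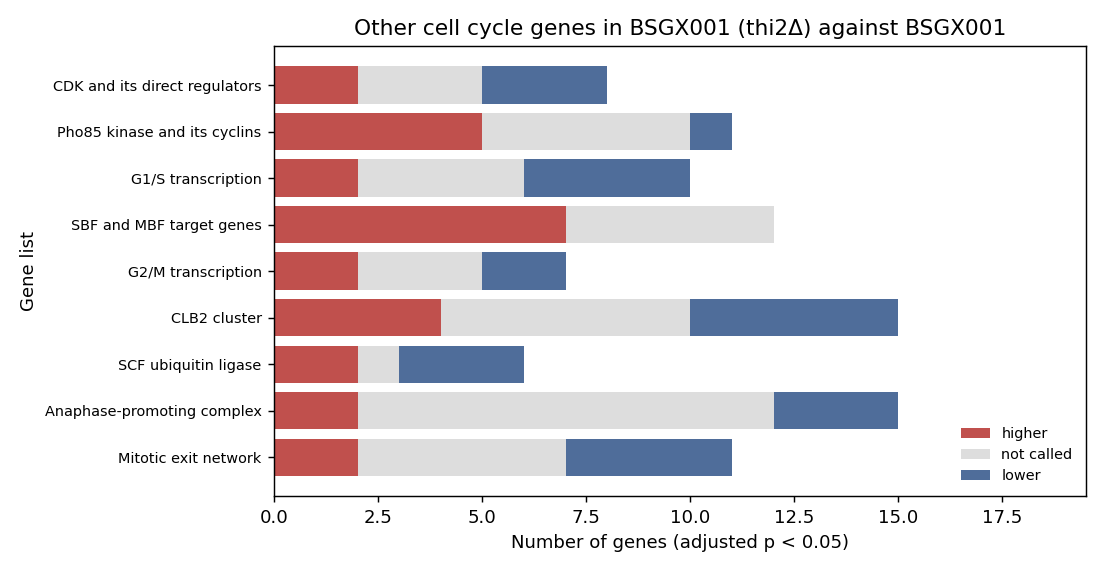
Number of genes called higher, not called and called lower in BSGX001 (thi2Δ) against BSGX001, for 9 of the 10 lists of cell cycle genes, at an edgeR adjusted p under 0.05 on the TMM scale. The SBF and MBF target genes had 7 higher and 0 lower of 12.

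Among Cdc28 and its direct regulators, 2 of 8 were higher and 3 lower. *CDC28* itself had a log2 fold change of 0.20 (SE 0.071, edgeR adjusted p = 0.0186), and the call was missed without BSGX001 replicate 2 (0.18, adjusted p = 0.0717). *SWE1*, the kinase that inhibits Cdc28, rose (0.59), and *MIH1*, the phosphatase that reverses it, and *HSL1*, which leads to Swe1 destruction, fell (-0.45 and -0.36). Of the Pho85 kinase and its cyclins 5 of 11 were higher, with *PHO80* (0.60) and the G1 cyclin *PCL1* (0.60) the largest rises, and 1 was lower, *PCL5* (-0.21), whose sign turned to 0.01 with library totals. The *PCL5* call was also missed without BSGX001 replicate 2 (adjusted p = 0.0578) or 3 (0.0504) or thi2Δ-labelled replicate 3 (0.0503).

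The G1/S regulators had 2 of 10 higher and 4 lower. *WHI5* fell by 0.29 on the log2 scale (SE 0.093, edgeR adjusted p = 0.0116), with 57.5, 41.6 and 54.3 CPM in the thi2Δ-labelled libraries, against 60.1, 64.1 and 64.6 CPM in BSGX001. The call was missed without thi2Δ-labelled replicate 2 (-0.17, adjusted p = 0.120) and with library totals (-0.07). *MSA1*, which binds SBF and MBF, and *WHI3*, an RNA-binding protein that restrains Cln3, fell (-0.50 and -0.43), *STB1* rose (0.32), and *NRM1*, the MBF corepressor, was not called (-0.11, and 0.10 with library totals). The call of *STB1* was missed without BSGX001 replicate 1 (adjusted p = 0.149), without thi2Δ-labelled replicate 1 (0.0987) or 3 (0.0601) and by DESeq2 (0.0552), and the list then had as few as 0 genes higher. Of their 12 target genes 7 were higher and 0 lower, with a median of 0.42 against 0.01 for all genes. The largest rises were those of *CDC21*, thymidylate synthase (0.88), and *SVS1* (0.85). DESeq2's Wald test called 5 of these higher and 0 lower.

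The G2/M regulators had 2 of 7 higher, with the repressor *YHP1* at 0.78, and 2 lower, *NDD1* (-0.33) and *MCM1* (-0.22). The CLB2 cluster, genes expressed with *CLB2*, had 4 of 15 higher and 5 lower. *SWI5*, the activator of *SIC1*, rose (0.54, SE 0.14, edgeR adjusted p = 0.00202), as did *BUD8* (0.39), and the bud site genes *BUD3* (-0.51) and *BUD4* (-0.35) fell. The call of *BUD8* was missed without BSGX001 replicate 2 (adjusted p = 0.0673) or 3 (0.101) or thi2Δ-labelled replicate 1 (0.12), and by DESeq2 (0.0502).

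The SCF ubiquitin ligase marks Sic1 and the G1 cyclins for destruction. Of its 6 genes 2 were higher, the cullin *CDC53* (0.48) and *GRR1* (0.20), the F-box protein for Cln1 and Cln2, and 3 were lower, among them *SKP1* (-0.33) and the ubiquitin-conjugating enzyme *CDC34* (-0.32). The call of *GRR1* was missed in 4 of the 6 fits that left out a library (BSGX001 replicates 1 and 3, thi2Δ-labelled replicates 1 and 3), with adjusted p between 0.0565 and 0.161. DESeq2 missed the *GRR1* call too (adjusted p = 0.0623). The anaphase-promoting complex, which destroys mitotic cyclins, had 2 of 15 higher (*APC4* 0.37, *APC2* 0.29) and 3 lower, among them *DOC1* (-0.48) and *SWM1* (-0.29), and the call of *APC2* was missed without BSGX001 replicate 1 (adjusted p = 0.0751) or thi2Δ-labelled replicate 1 (0.0612). The mitotic exit network had 2 of 11 higher, *LTE1* (1.29) and *CDC15* (0.65), both on chromosome I, and 4 lower, among them *BFA1* (-0.59) and *DBF2* (-0.30).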

How the data were processed

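The authors deposited, for each of 6 libraries, an expected count per gene, which is a whole number and not normalized, and FPKM values relative to the length of the gene and the total of the library (95.4% of those above 1 could be recomputed from the counts within 1%). The submitters' processing notes name build R64 and DESeq, and the aligner and counter are not given in the sources used here. Tables of the authors' own fold changes and p-values were not used, nor were 12 per-sample columns of series tables, all 12 equal to the per-library files. Of 5925 gene IDs, 5923 matched R64. The paper's methods describe other libraries and were not taken as a source.

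Strains and replicate numbers came from the labels. Expected counts, already whole, were tested with edgeR 4.0.16 in R 4.3.3 (TMM, filterByExpr, robust quasi-likelihood fit), and p-values were adjusted by Benjamini-Hochberg over the 5774 genes tested. Standard errors were taken as the size of the log2 fold change over the root of F. The members, lists and alternatives were chosen with earlier results of these data known. The text names all members, *THI2*, *CDC28*, *NRM1*, *WHI5* and *SWI5*, up to 2 largest rises and 2 largest falls per list among called genes whose libraries do not overlap, and the 3 genes most like *CLN2*, *CLB2* and *SIC1* with a mean of at least 10 CPM. The genes of 1 of the 10 cell cycle lists enter the counts over all lists and are not reported here. Marker lists of a cells, alpha cells and meiosis are given by their sums.

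Alternatives were DESeq2 size factors, library totals, scaling without chromosome I and the chromosome XII segment, no filter, at least 10 counts in every library, DESeq2 1.42.0, a replicate block, leaving out each library, limma 3.58.1 on log2(FPKM + 1) and log2(FPKM + 0.1), and an adjusted p under 0.01. The biological coefficient of variation was 0.0628. The fit was also run on simulated counts with as many rises as falls, which does not test the choice of scaling.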

Additional observations from a re-analysis of the deposited data

How the results depend on the processing

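*CLN1*, *CLN3* and *CLB5* were called higher under all 16 alternatives, with log2 fold changes of 0.47 to 0.71, 1.21 to 1.5 and 0.41 to 0.69. *CLB3* was called in 14, *SIC1* in 13 and *CLB4* in 8 of 16. The count of members called lower, 2, was 0 both with library totals and by limma on FPKM at either pseudocount, 1 at an adjusted p under 0.01, and between 1 and 3 when a library was left out. The other cell cycle genes, 31 higher and 26 lower, became 52 and 6 with library totals and 51 and 6 with limma at either pseudocount. These scalings move all genes upward, which shifts calls from lower to higher. Signs turned for *CLN2* and *NRM1*, which were not called, and for *PCL5*, which was called lower. *CLN2* had 0.15 with library totals, and 0.16 and 0.18 by limma with pseudocounts of 1 and 0.1. When a library was left out it had -0.18 to 0.029 (0.00389 without BSGX001 replicate 2). *NRM1* had 0.10 in each of these 3 scalings and -0.23 to 0.032 with a library left out. The log2 fold change of *PCL5* turned from -0.21 to 0.01 (0.00581 with library totals, 0.0061 with limma at either pseudocount). Libraries with the same replicate number did not deviate together, with correlations of deviations of 0.083, -0.068 and -0.054, and with the replicate block 6 members and 57 other genes were called (30 higher and 27 lower). *CLB6* had 46 to 66 counts per library, the fewest of the members.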
